A study of Homo sapiens with 9 samples.

Results

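The miRNA hairpins hsa-mir-103a-1, hsa-mir-103a-2 and hsa-mir-107 lie in introns of PANK3, PANK2 and PANK1, genes for pantothenate kinases, which start coenzyme A synthesis. They were taken by name and are 3 of the 1485 hairpins with counts in small RNA libraries from 2 human cell lines. HEK293E, which descends from HEK293 cells of embryonic kidney, was transfected on days 0 and 3 with siGFP, siControl, siERH-3 or siERH-5 and harvested on day 5. K562, a leukaemia line with erythroid features, was electroporated with siGFP or siERH-5 and harvested on day 4. The labels name no allele or drug beyond the transfections, and they give no sequence or target for siControl. The 9 libraries comprised replicates 1 and 2 of siGFP, siControl and siERH-3 and replicate 2 of siERH-5 in HEK293E, and 1 library each of siGFP and siERH-5 in K562.

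An intronic miRNA can be made from the precursor mRNA of its host gene, which these libraries do not read. In the nucleus the Microprocessor, which contains the nuclease DROSHA and its partner DGCR8, cuts the hairpin out of the transcript, and DICER1 later releases the mature duplex. ERH is a small nuclear protein that binds DGCR8, and the libraries address how loss of ERH affects miRNA levels. miR-103 and miR-107 are a vertebrate family known for effects on insulin sensitivity and for targeting DICER1 itself. Their hairpins are called solitary here because no other hairpin of the count table lies near them on the same strand, and they show the levels of abundant hairpins outside clusters.

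The sequences are shown first because they set how far the rows of the count table can be told apart. In the mature 3p sequences from RefSeq (GRCh38.p14), written 5′ to 3′, capitals mark the seed, bases 2 to 8, which pairs with target sites.
hsa-miR-103a-3p: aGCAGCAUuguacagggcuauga
hsa-miR-107: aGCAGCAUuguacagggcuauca
Both are 23 bases long, share their first 21 bases and differ only by G22C, counted from the 5′ end of hsa-miR-103a-3p. Among 2370 human mature miRNA names in RefSeq, only these 2 had the seed GCAGCAU. hsa-mir-103a-1 and hsa-mir-103a-2 give the same 3p sequence, so reads of that arm fit both copies. Their 5p arms differ only by G1A, counted from the 5′ end.
hsa-miR-103a-1-5p: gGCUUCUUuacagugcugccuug
hsa-miR-103a-2-5p: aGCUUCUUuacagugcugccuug

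The whole hairpins from RefSeq are given with the mature 3p sequence in capitals, to show that the copies differ mostly outside it.
hsa-mir-103a-1: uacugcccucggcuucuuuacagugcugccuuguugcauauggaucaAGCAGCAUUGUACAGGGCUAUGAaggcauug
hsa-mir-103a-2: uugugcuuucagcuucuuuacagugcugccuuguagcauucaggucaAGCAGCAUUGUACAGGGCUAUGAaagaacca
hsa-mir-107: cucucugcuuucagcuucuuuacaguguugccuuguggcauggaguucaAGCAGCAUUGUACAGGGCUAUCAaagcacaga
Global alignment gave 63 identical positions of 78 (80.8%) between the hsa-mir-103a copies. hsa-mir-107 matched hsa-mir-103a-1 at 66 of 83 columns (79.5%) and hsa-mir-103a-2 at 69 of 81 (85.2%).

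The loci hold the same place in their host genes. In GENCODE release 29 (GRCh38), MIR103A1 lies at chr5:168560896-168560973 on the minus strand, in intron 5 of the 6 introns of the principal PANK3 transcript. MIR103A2 lies at chr20:3917494-3917571 on the plus strand, in intron 5 of 6 of PANK2. MIR107 lies at chr10:89592747-89592827 on the minus strand, in intron 5 of 6 of PANK1. The hairpins begin 419, 443 and 369 bases after the preceding exon, in introns of 2235, 1620 and 4419 bases, and no other hairpin of the count table lies within 207 kb of any of them on the same strand. Their GC contents were 48.7%, 44.9% and 46.9%, below the median of 51.1% over the 772 tested hairpins with a sequence. RNAfold gave minimum free energies of -31.0, -28.1 and -29.5 kcal/mol. Per base these were -0.397, -0.360 and -0.364 kcal/mol against a median of -0.474, and 23.8%, 13.0% and 14.1% of hairpins folded more weakly than hsa-mir-103a-1, hsa-mir-103a-2 and hsa-mir-107. The antisense hairpins hsa-mir-103b-1 and hsa-mir-103b-2 were not analysed here.

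The libraries held 2609929 to 3320017 hairpin counts. Between 1208 and 1263 hairpins were detected in the HEK293E controls, 1288 to 1297 with siERH in HEK293E, and 1061 and 1163 in the siGFP and siERH-5 libraries of K562. ERH mRNA is not read by small RNA libraries, so the knockdown itself was not analysed here. All 6 erythroid and blood-lineage marker hairpins, among them hsa-mir-451a and hsa-mir-223, were detected in every library. In HEK293E hsa-mir-223 had only 1 to 25 counts. The 6 took 15.0% and 14.4% of counts in K562 against 0.203% to 0.314% in HEK293E. Of these, hsa-mir-486-1 and hsa-mir-486-2 had nearly equal counts, 51998 and 51927 in K562 with siGFP. Whether these rows share reads was not tested. Spike-in RNAs were not used here, so every level is relative to the other hairpins and total miRNA was not measured.

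The 3 hairpins were abundant in both lines. hsa-mir-107 had 26751 and 32998 counts with siGFP in replicates 1 and 2 of HEK293E, 31896 and 40657 with siControl, 36851 and 42863 with siERH-3, and 41240 in the single siERH-5 library. The K562 libraries held 20595 counts of it with siGFP and 29940 with siERH-5. By count it ranked between 18 and 36 of the 1485 hairpins over the 9 libraries. hsa-mir-103a-1 had 31994 and 39535 counts with siGFP, 37470 and 48969 with siControl, 43216 and 51343 with siERH-3, 49969 with siERH-5, and 24285 and 35224 in K562. hsa-mir-103a-2 had 33039 and 40052, 38614 and 49717, 44436 and 52298, 50834, and 24783 and 35755 in the same order. Their ranks ran from 11 to 30 and from 10 to 28. The 3 rows together made up 2.67% to 4.72% of each library's counts, and in every library hsa-mir-103a-2 was highest and hsa-mir-107 lowest. How reads that fit both hsa-mir-103a copies were counted is not known. The sum may therefore hold reads more than once, and the order of the rows need not be that of the loci.

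To compare libraries, counts were scaled by TMM, which sets library sizes so that most hairpins stay level, and given as CPM, counts scaled to a library of 1e+06. On this scale hsa-mir-107 reached 6975 and 12401 CPM with siGFP in replicates 1 and 2, and 9917 and 14135 CPM with siControl. The siERH libraries had 9583 and 11249 CPM with siERH-3 and 10114 CPM with siERH-5. All 3 siERH values fell inside the control range, whose lowest value came from siGFP replicate 1. hsa-mir-103a-1 ran from 8342 to 17025 CPM in the controls (median 13254) and from 11239 to 13474 CPM with siERH (median 12255). hsa-mir-103a-2 ran from 8614 to 17285 CPM (median 13529) and from 11556 to 13725 CPM (median 12467). For both copies too the groups overlapped, and the controls spread about 2.0-fold from lowest to highest against 1.2-fold among the siERH libraries.

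**Figure D1:**
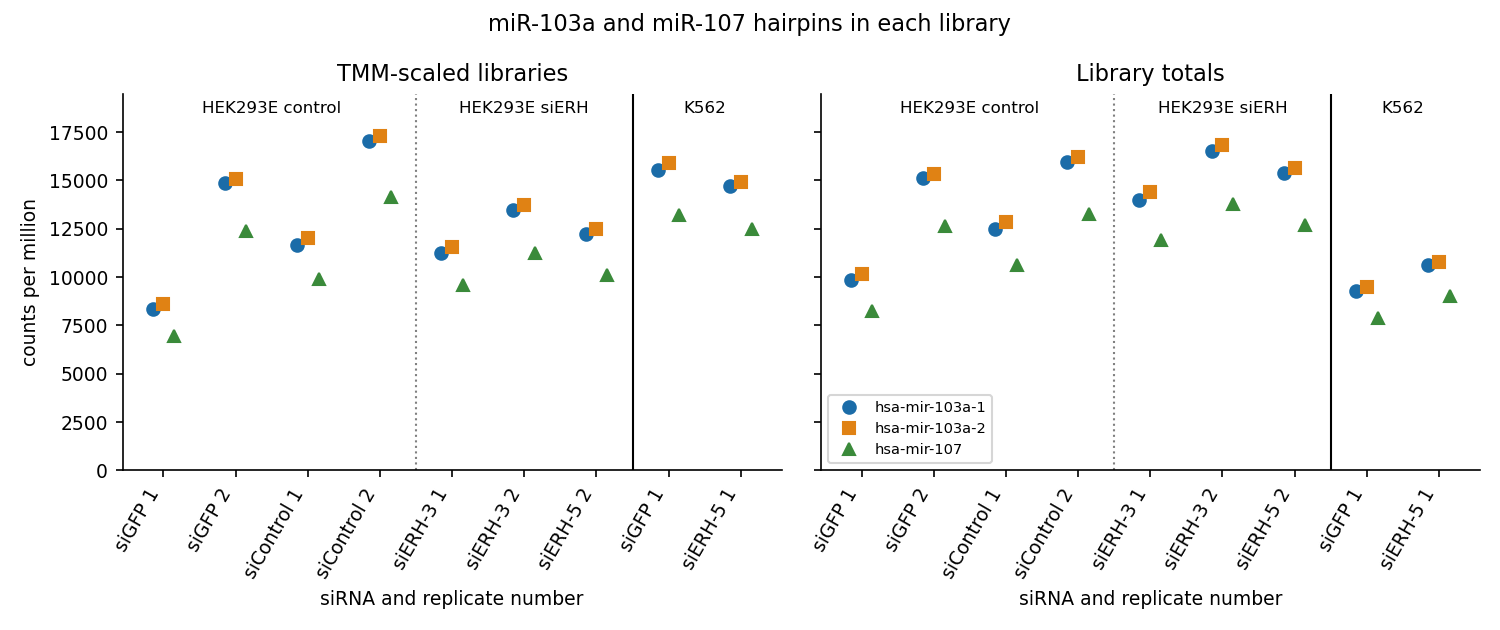
Levels of the 3 hairpins in each of the 9 libraries, as TMM-scaled CPM (left) and CPM of the library total (right). Each point is 1 library, the dotted line separates control from siERH libraries in HEK293E and the solid line separates K562. The 3 hairpins moved in parallel from library to library, with siGFP replicate 1 lowest among the HEK293E libraries on both scales.

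The parallel movement was close to that of identical copies. Within a library the raw count of hsa-mir-107 was between 0.818 and 0.844 of the mean of the hsa-mir-103a copies over the 9 libraries, a 1.03-fold range. The ratio was 0.818 to 0.841 in HEK293E and 0.839 and 0.844 in K562. The ratio of hsa-mir-103a-2 to hsa-mir-103a-1 was 1.013 to 1.033. hsa-mir-103a-2 exceeded its copy by 498 to 1220 counts in each library. This excess was 2.82% to 3.27% of the hsa-mir-103a-1 count in the 3 replicate 1 libraries of HEK293E and 1.31% to 1.86% in the 4 replicate 2 libraries, so the replicates did not overlap in it.

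For neither ratio was a difference between siERH and control detected. Reads of the shared 3p arm fit both hsa-mir-103a copies, so the test cannot tell whether the loci themselves changed alike. On the log2 scale the ratio of hsa-mir-107 to the hsa-mir-103a mean was -0.27 ± 0.01 (SD, n = 4) in controls and -0.27 ± 0.02 (SD, n = 3) with siERH (two-sided exact permutation test over 35 splits, p = 1.0, adjusted over the 2 ratios p = 1.0). For hsa-mir-103a-2 to hsa-mir-103a-1 it was 0.03 ± 0.01 (SD, n = 4) and 0.03 ± 0.01 (SD, n = 3), with exact permutation p = 0.914 and adjusted p = 1.0. The test doubles the smaller tail, so over 35 splits neither ratio could have reached a p under 0.05. These ratios do not depend on how libraries are scaled.

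Other related hairpins, picked after their values were seen, put these ranges in context. The copies hsa-mir-26a-1 and hsa-mir-26a-2, which share a mature miRNA, had a ratio of 0.996 to 0.999, and those of hsa-mir-218-1 to hsa-mir-218-2 ran from 1.02 to 1.05. For hairpins with different mature sequences, the ratio of hsa-mir-26b to hsa-mir-26a-2 spread 1.19-fold over the 9 libraries. That of hsa-mir-148b to hsa-mir-152 spread 3.99-fold. How reads that fit several hairpins were counted is not given in the sources used here. The rows of hsa-mir-103a-1 and hsa-mir-103a-2 are therefore not independent. Whether reads ending before base 22, which fit hsa-miR-103a-3p and hsa-miR-107 equally, entered both rows was not tested, so the 3 rows are described below as a family and not as replicates.

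**Figure D2:**
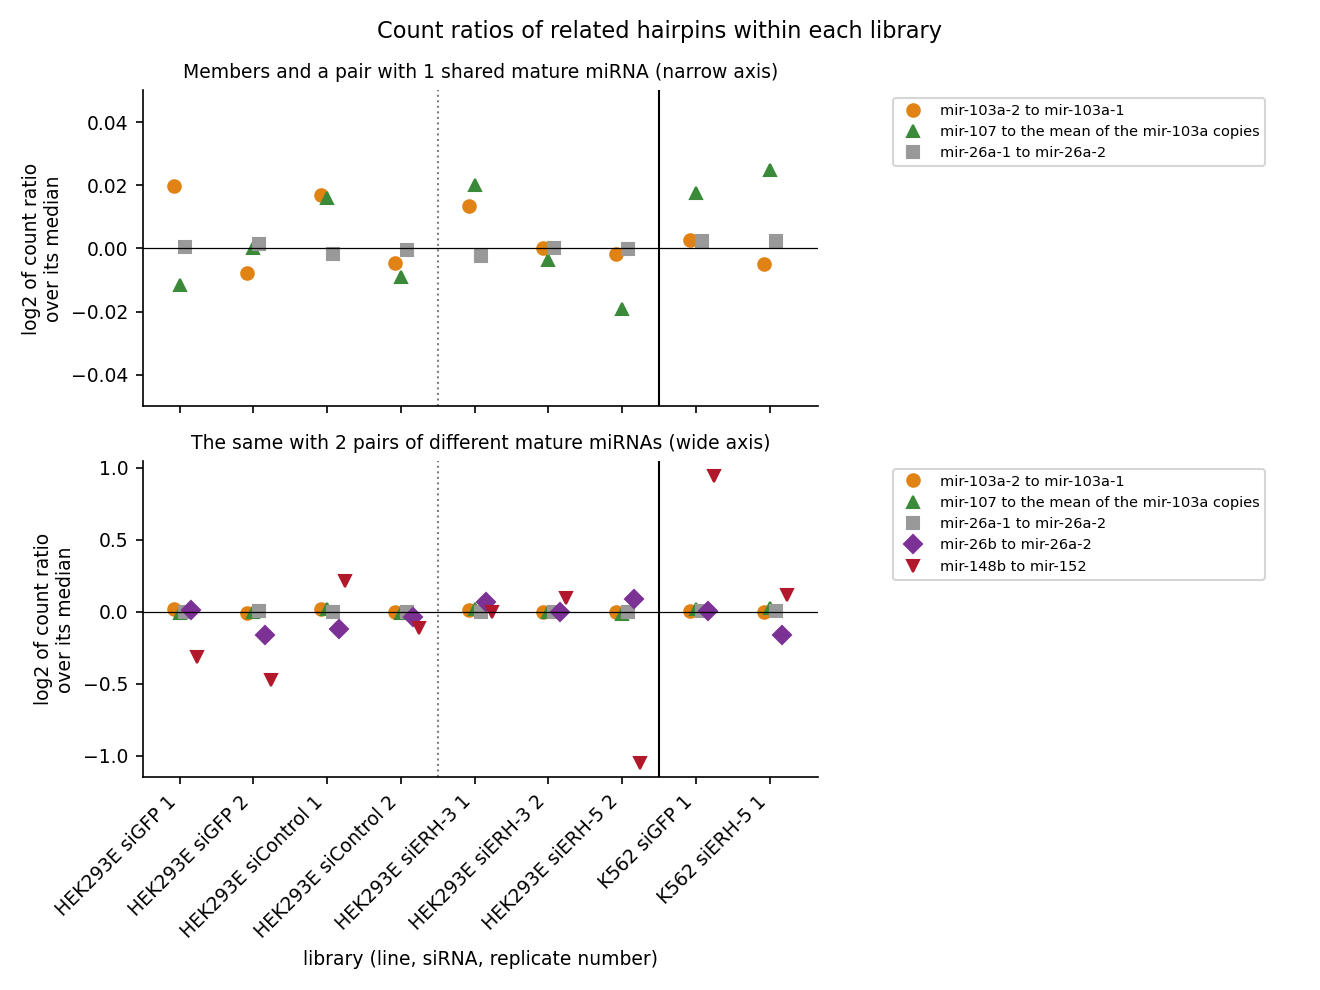
Within-library count ratios, each as log2 over its median across the 9 libraries, with 1 point per library. The upper panel shows the ratios among miR-103a and miR-107 hairpins and the hsa-mir-26a copies on a narrow axis, and the lower panel adds pairs with different mature sequences on a wide axis. Ratios within the family stayed within 0.03 of their median, while hsa-mir-148b to hsa-mir-152 spread 3.99-fold.

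In HEK293E, no change of the family with siERH was detected within the error of these libraries. hsa-mir-107 averaged 10857 ± 3114 CPM (SD, n = 4) in controls and 10316 ± 851 CPM (SD, n = 3) with siERH. Its log2 fold change was -0.02 ± 0.22 (SE), with a 95% interval of -0.50 to 0.47 and an adjusted p of 0.952 (edgeR quasi-likelihood test, p-values adjusted by Benjamini-Hochberg over 773 hairpins). hsa-mir-103a-1 averaged 12969 ± 3794 CPM (SD, n = 4) and 12323 ± 1119 CPM (SD, n = 3), and hsa-mir-103a-2 averaged 13239 ± 3767 and 12583 ± 1089 CPM. Their log2 fold changes were both -0.02, each with an adjusted p of 0.952. All 3 members passed the filter of a mean of at least 10 counts, and 0 of 3 passed the threshold of an adjusted p under 0.05. Over all tested hairpins the test called 309 of 773 (40.0%), 125 lower (16.2%) and 184 higher (23.8%). The interval for hsa-mir-103a-1 allowed any fold between 0.703 and 1.39, so this fit could not tell a change within it from none. This fit leaves out the replicate number, and the fit with it as a block, given below, had a smaller standard error. Counting error was small beside this: with 20595 counts, the share of hsa-mir-107 in K562 with siGFP had a 95% Wilson interval of 0.777% to 0.799%. Intervals of this kind cover counting error only.

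The sign of this small change turned with the scaling. When library totals replaced TMM, the log2 fold change was 0.20 for each of the 3 hairpins, and the median of all tested hairpins moved with it, from -0.01 to 0.19. The family lay close to the median of all hairpins under either scaling. The split of calls also moved, with 40.5% of called hairpins lower under TMM and 24.0% under library totals. Over all settings the siERH change of the members ran from -0.36 to 0.22 on the log2 scale. The lowest adjusted p was 0.055 (edgeR, with a trend in GC content removed and the replicate number as a block).

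On TMM CPM, the difference from the mean of the controls had opposite signs in replicates 1 and 2 for the family. In replicate 1, siERH-3 minus the mean of the controls was 0.20 (log2 of TMM CPM) for hsa-mir-107. There the siERH-3 library, at 9583 CPM, lay between siGFP at 6975 CPM and siControl at 9917 CPM. Both hsa-mir-103a copies also lay between the controls in replicate 1, so the positive sign rests on the low siGFP library. In replicate 2 the difference was -0.24 for siERH-3 and -0.39 for siERH-5, and both siERH libraries lay below both controls. hsa-mir-103a-1 gave 0.19, -0.24 and -0.38, and hsa-mir-103a-2 gave 0.18, -0.23 and -0.37. On library totals the hsa-mir-107 differences were 0.35, 0.09 and -0.03, so in replicate 2 the lower position of the siERH libraries was seen only after TMM scaling. Within replicate 2 alone, edgeR gave -0.19 for hsa-mir-103a-1 with an adjusted p of 0.135.

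Taken by siRNA, siERH-3 gave log2 fold changes of -0.01 ± 0.28 (SE) for hsa-mir-103a-1, with an adjusted p of 0.988 by edgeR. hsa-mir-107 gave 0.00 ± 0.28, with an adjusted p of 0.994. For this siRNA 232 of 759 hairpins (30.6%) were called and no member was. siERH-5 had 1 library in HEK293E and no test, and it lay -0.38 to -0.39 log2 units from the mean of the replicate 2 controls, against a median of -0.03 over 760 hairpins. In that comparison 178 of 760 hairpins (23.4%) were at least 2-fold off, and none of the 3 members was.

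The difference between the control siRNAs was larger in value than that of siERH from both, and the one was not tested against the other. hsa-mir-107 was 0.31 ± 0.36 (SE, log2) higher with siControl than with siGFP, which did not pass the test without the replicate block (edgeR, adjusted p = 0.959). Blocking on the replicate number gave 0.34 ± 0.11, with an adjusted p of 0.0128, and for both hsa-mir-103a copies it was 0.34 ± 0.11 with an adjusted p of 0.0158. siControl was above siGFP in both replicates for each of the 3 hairpins. The background changed as much: edgeR called 0 of 730 hairpins (0.0%) without the block, with 24 at an unadjusted p under 0.05 and 4 called by DESeq2, and 133 of 730 (18.2%) with it. In siERH against control the block gave -0.06 ± 0.15 for each member, with adjusted p of 0.751 to 0.768, beside 376 of 773 hairpins called (48.6%). Without siGFP replicate 1 the hsa-mir-107 difference between control siRNAs was -0.04, and without siGFP replicate 2 it was 0.79, so leaving out 1 control library turned its sign or moved it past 1.5 times in the fit without the block.

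**Figure D3:**
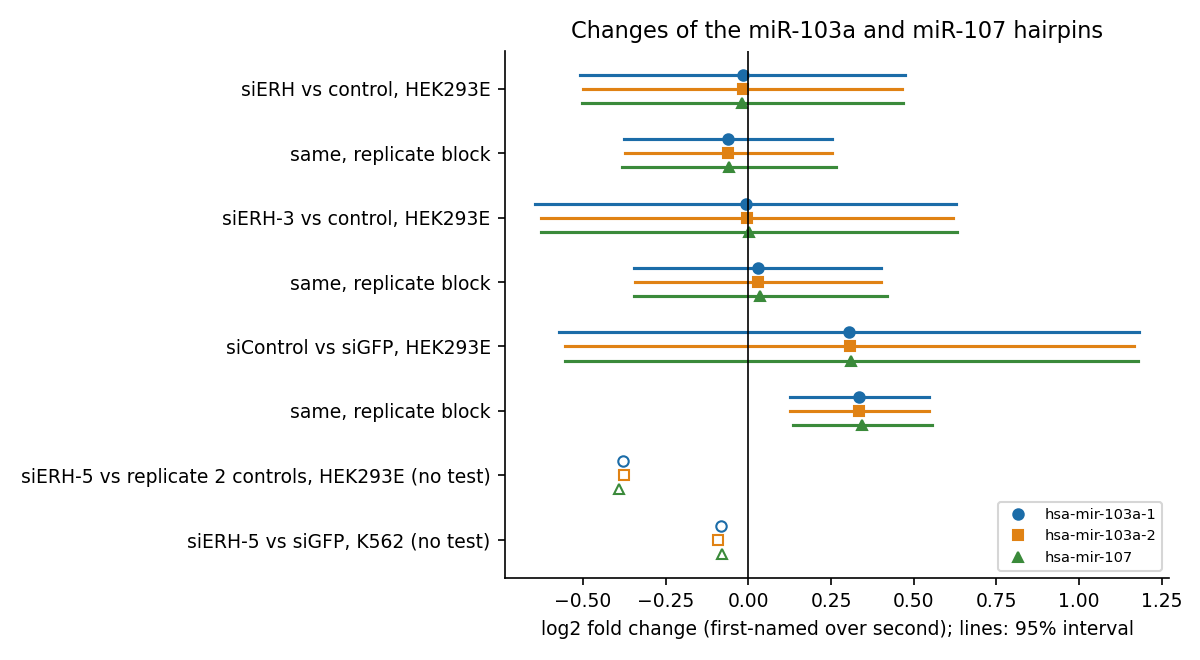
Log2 fold changes of the 3 hairpins with 95% intervals from edgeR in HEK293E, without and with the replicate number as a block, and single-library log2 ratios without a test (open symbols). Intervals for siERH against control cross 0 in both fits. Those for siControl against siGFP leave 0 only with the block.

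In K562 the family was again near its control. hsa-mir-107 was at 13202 CPM with siGFP and 12496 CPM with siERH-5, a log2 ratio of -0.08. hsa-mir-103a-1 went from 15568 to 14701 CPM (-0.08) and hsa-mir-103a-2 from 15887 to 14923 CPM (-0.09). The median over 646 hairpins was 0.12, and 118 of them (18.3%) differed at least 2-fold, none of them a member. On library totals the ratios were 0.19, 0.18 and 0.19 for hsa-mir-103a-1, hsa-mir-103a-2 and hsa-mir-107 against a median of 0.37, so the sign turned with the scaling while the family stayed below the median. For hsa-mir-107 the counting interval on library totals was 0.17 to 0.22, which compares these 2 libraries and not the conditions. Each K562 group has 1 library, so no replicate check exists.

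Between lines, no member was 2-fold apart, while 432 of 741 hairpins (58.3%) were. With siGFP, K562 was 0.42, 0.43 and 0.45 log2 units above HEK293E for hsa-mir-103a-1, hsa-mir-103a-2 and hsa-mir-107 on TMM CPM, against a median of -0.44 over 741 hairpins. On library totals it was -0.43, -0.43 and -0.41, against a median of -1.26. Which line was higher therefore turned with the scaling, and only the position relative to other hairpins did not: 68.4% to 69.1% of hairpins had a lower ratio than each member on either scale. Against all 4 HEK293E controls the TMM ratios were 0.26 to 0.28. The K562 siGFP level of hsa-mir-107 lay inside the HEK293E control range on TMM CPM and below its lowest value, 8235 CPM with siGFP replicate 1, on library totals, where K562 with siGFP had 7879. The blood-lineage hairpins took 15.0% of the K562 siGFP counts, and their part in the difference between scalings was not tested.

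Other solitary intronic hairpins serve as the comparison for the family. A list of 47 hairpins taken as single and in introns of protein-coding genes was drawn up, the 3 members left aside. By the annotation 45 lay in an intron of the listed host, while hsa-mir-7-1 and hsa-mir-330 overlapped an exon. Another hairpin of the table lay within 10 kb on the same strand for hsa-mir-338 and hsa-mir-33b, and the opposite strand was not searched. All 47 were tested, and with siERH 13 fell, 3 rose and 31 did not pass the test (34.0% called, against 40.0% of all hairpins). Copies with nearly equal counts, such as those of hsa-mir-26a and hsa-mir-218, were counted as separate hairpins. The copies hsa-mir-153-1 and hsa-mir-153-2, with 1638 and 1684 counts in siGFP replicate 1 of HEK293E, were both among the 13. The list's median log2 fold change was -0.17, against -0.01 over all 773 hairpins, and its values ran from -2.01 to 1.03. Of the 47, 34 lay below and 13 above the 3 members. With the replicate block 17 fell and 5 rose, beside 20.6% lower and 28.1% higher of all hairpins. On library totals 4 of the 47 fell and 4 rose, beside 8.67% and 27.4% of all. With a trend in GC content removed, 18 fell and 3 rose, beside 21.0% and 17.6% of all. Leaving out 1 library at a time gave 6 to 15 lower, with 6 without siERH-3 replicate 1 or replicate 2, and 8 without siERH-5 or without siGFP replicate 2. For the 43 that the annotation bears out, 11 fell and 3 rose.

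The 4 listed hairpins that fell under both scalings were hsa-mir-589, hsa-mir-874, hsa-mir-338 and hsa-mir-126, named here after their values were seen. hsa-mir-589, in FBXL18, had 947 and 666 CPM with siGFP in replicates 1 and 2 and 842 and 598 CPM with siControl. It had 214 and 170 CPM with siERH-3 and 164 CPM with siERH-5. The groups were far apart, and the change was -2.01 ± 0.22 on the log2 scale (SE; adjusted p = 8.02e-05 by edgeR). In K562 it went from 476 to 118 CPM, a log2 ratio of -2.0, and was the only hairpin of the 43 listed ones measured there to fall short of its control by 2-fold or more (background 6.97%). hsa-mir-874, in KLHL3, gave -0.87 ± 0.17 and hsa-mir-338, in AATK and 1 of the 2 with a near neighbour, gave -0.80 ± 0.16. hsa-mir-126, the endothelial miRNA in EGFL7, gave -0.69 ± 0.20, which no longer passed the test without siERH-3 replicate 1 or without siERH-5 (adjusted p = 0.0729 and 0.0685) or against siGFP alone.

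The 3 list members that rose were hsa-mir-641 in AKT2, hsa-mir-1301 in DNMT3A and hsa-mir-629 in TLE3, also named after their values were seen. hsa-mir-641 had 235 and 236 CPM with siGFP, 241 and 281 with siControl, 503 and 486 with siERH-3 and 472 with siERH-5. The change was 1.03 ± 0.16 on the log2 scale (SE; adjusted p = 0.000744 by edgeR). hsa-mir-1301 gave 0.62 ± 0.16, which missed the threshold without siERH-3 replicate 2 (adjusted p = 0.0534), and hsa-mir-629 gave 0.55 ± 0.14. Against siGFP alone neither of the latter passed the test. In K562, hsa-mir-152, in COPZ2, was the only listed hairpin that exceeded its control by 2-fold or more (background 11.3%), with a log2 ratio of 1.04 from 245 and 775 counts.

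Among the 8 most abundant hairpins of the list, which are nearest to the family in level, 1 fell and 7 did not pass the test. Of all 773 tested hairpins, 16.2% were called lower and 23.8% higher. hsa-mir-378a, in the metabolic coactivator gene PPARGC1B, had 16971 and 12012 CPM with siGFP, 14935 and 10457 CPM with siControl, 10335 and 7767 CPM with siERH-3, and 7791 CPM with siERH-5. All siERH values lay below all controls, the nearest libraries being siERH-3 replicate 1 and siControl replicate 2. Over all hairpins 353 of 773 (45.7%) had groups that did not overlap. On the log2 scale the change was -0.60 ± 0.20 (SE; adjusted p = 0.031 by edgeR). On library totals it was -0.44 and did not pass the test (adjusted p = 0.169). Nor did it pass without siControl replicate 1, siERH-3 replicate 2 or siERH-5, with adjusted p of 0.0804, 0.123 and 0.13.

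The other 7 gave smaller changes. hsa-mir-218-1 and hsa-mir-218-2, which sit in the axon guidance genes SLIT2 and SLIT3 and share a mature miRNA, both gave -0.08 and averaged 13123 and 12604 CPM in controls. hsa-mir-186, in ZRANB2, gave -0.25 (adjusted p = 0.242), and hsa-mir-151a, in PTK2, gave -0.31 (adjusted p = 0.105). hsa-mir-26a-2, in CTDSP2, gave 0.07. hsa-mir-101-2, in RCL1, gave -0.28 without the block, and -0.35 with an adjusted p of 0.0186 with it. hsa-mir-7-1, which overlaps an exon of HNRNPK by the annotation and is thus no strict intronic comparison, gave 0.40 without the block, and 0.45 with an adjusted p of 0.0166 with it. Of these, hsa-mir-218-1 was at only 157 CPM in K562 with siGFP. With a GC trend removed, 5 of the 8 fell and 0 rose, where 21.0% of all tested hairpins were called lower and 17.6% higher. Over the whole list 18 of 47 were lower in K562 by 2-fold or more (background 37.9%) and 6 higher (background 20.4%), with a median of -0.54 against -0.44 for all hairpins.

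A second list was built from the annotation alone. It took every hairpin within an intron of a coding gene with no other hairpin of the table within 10 kb on the same strand, 602 in all. Of these 349 were tested, and 38 fell and 110 rose (42.4% called, against 40.0% of all hairpins, 16.2% lower and 23.8% higher). The median log2 fold change was 0.23 against -0.01 over all hairpins, with 140 below and 209 above hsa-mir-107. The others did not reach a mean of 10 counts.

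**Figure D4:**
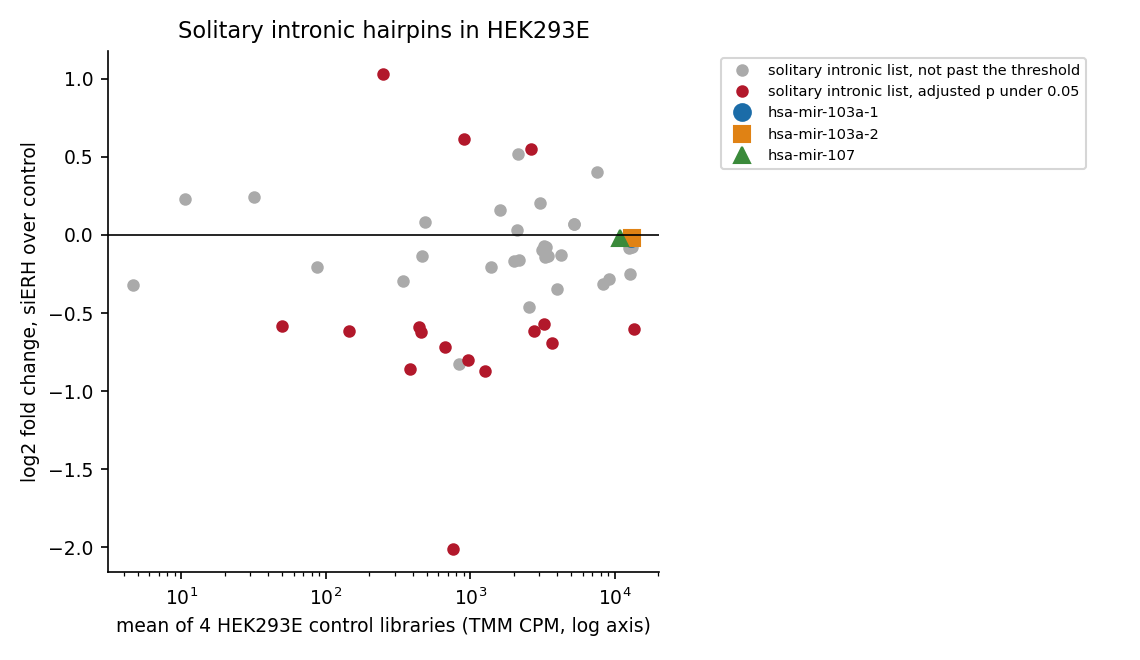
Log2 fold change with siERH in HEK293E against mean control level (TMM CPM, log axis) for the 47 listed solitary intronic hairpins and the 3 miR-103a and miR-107 hairpins. Each point is 1 hairpin, and red points have an adjusted p under 0.05. The family lies at -0.02 among the most abundant hairpins, with 34 of the 47 below it.

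The hairpins whose profile over the 9 libraries was most like the family were described by the root mean square difference of centred log2 TMM CPM. For hsa-mir-107 the nearest outside the family were hsa-mir-93 (0.089), hsa-mir-16-1 (0.138) and hsa-mir-16-2 (0.158), against a median of 0.807 over 787 hairpins. For hsa-mir-103a-2 they were hsa-mir-93 (0.081), hsa-mir-16-1 (0.144) and hsa-mir-30c-1 (0.163). Distances within the family were 0.010 to 0.017. hsa-mir-93, in an intron of the replication gene MCM7 and part of the miR-106b cluster, averaged 11906 ± 2950 CPM (SD, n = 4) in controls and 11222 ± 322 CPM (SD, n = 3) with siERH. hsa-mir-30c-1 lies in NFYC and gave a log2 fold change of 0.10. These distances are descriptions over libraries that share their scaling.

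The miR-15/16 family has a seed that overlaps that of miR-103a and miR-107 by all but 1 base, as these RefSeq sequences show with the seed in capitals.
hsa-miR-15a-5p: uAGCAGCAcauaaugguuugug
hsa-miR-16-5p: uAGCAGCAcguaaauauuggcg
The run GCAGCA occurs in both kinds of seed, shifted by 1 base, and is carried by the mature miRNAs of 7 of the 8 hairpins listed as related by seed. Of the 8, 1 fell with siERH and 7 did not pass the test (12.5% called against 40.0% of all). hsa-mir-15a was the one that fell, from 8041 ± 1858 CPM (SD, n = 4) to 3188 ± 200 CPM (SD, n = 3), with a log2 fold change of -1.28. Its cluster partner hsa-mir-16-1 gave 0.09 and hsa-mir-16-2 gave 0.14. Both of these hairpins give hsa-miR-16-5p, so reads of it fit both rows, and the rows do not show each locus apart. hsa-mir-15b gave -0.57 without the block and -0.62 with an adjusted p of 0.0103 with it. hsa-mir-424 and hsa-mir-503 gave -0.03 and -0.29. None of the 8 lies on the chromosome of a member.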

How the data were processed

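The authors deposited raw counts per hairpin, whole numbers with 2336 blank cells read as 0, and RPM values. Recomputation showed that the deposited RPM was the count plus 1 over the library total plus 1485, per 1e+06, within a relative 1.1e-09. The submitters' processing notes name cutadapt, Bowtie2, bedtools and hg38, without versions or roles. Per the labels' protocols, RNA was size-selected and ligated to adapters with random nucleotides. Whether reads were collapsed by molecule, how strand was used and how reads with several matches were counted are not given in the sources used here.

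The test was edgeR's quasi-likelihood test (edgeR 4.0.16, R 4.3.3), with TMM scaling, a mean of at least 10 counts, Benjamini-Hochberg adjustment over all tested hairpins and a threshold of 0.05. Only HEK293E libraries entered these fits, siERH against control as 3 against 4, siERH-3 against control as 2 against 4 and siControl against siGFP as 2 against 2. On simulated data the test recovered 139 of 195 hairpins changed 2-fold (71.3%) among 756 in siERH against control, and called 8 unchanged ones. With no hairpin changed it called 0 of 761. The simulated libraries shared no deviations by replicate number, as the real ones did, so these shares need not hold for the real data. The standard error is the fold change over the square root of F. Single-library ratios used TMM CPM plus 1, with TMM over all 9 libraries. Levels across lines are on that scale. Alternatives included library totals, DESeq2 1.42.0, limma 3.58.1 on log2 RPM with a pseudocount of 1 or 10, other filters, other controls, GC correction and leaving out each library.

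Replicate numbers come from the titles and match the experimental groups in the labels. Deviations of same-numbered libraries from their group means correlated at 0.692, 0.480 and 0.519 over 773 hairpins, so the replicate number was used as a block in the alternative fits. The labels do not say that replicates were separate cultures, so p-values measure the spread between these libraries, which may be technical. Replicate libraries differed by far more than sampling noise.

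Gene names and loci come from GENCODE release 29, matched for 1480 of 1485 hairpins, and printed sequences from RefSeq (GRCh38.p14). Folding used RNAfold 2.7.2, and other steps Python 3.11.15 with matplotlib 3.10.9, scipy 1.17.1, numpy 2.4.6 and pandas 2.3.3. The members and lists were chosen with earlier results of these data known. Hairpins named are the members, the 8 most abundant of the solitary intronic list, seed-related hairpins of at least 1000 CPM in controls, and the 3 hairpins most like hsa-mir-107 and hsa-mir-103a-2. Others are said to be named after their values were seen.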

Additional observations from a re-analysis of the deposited data

Results flagged for a closer look

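Among 21 sets of 4 control values checked for a library that stands apart, 1 was found, and chance alone gives about 1 in 20. For hsa-mir-7-1 in the 4 HEK293E controls, the gap between the highest library and the next was 0.874 of the whole range, above the critical value of 0.829. The values ran from 6386 to 9990 CPM. No set of the 3 miR-103a and miR-107 hairpins stood out.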

How the results depend on the processing

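Over all settings, 0 of 95 tests of siERH or siERH-3 against control passed the threshold for the miR-103a and miR-107 hairpins. Each hairpin in each setting counts as 1 test, so these tests are not independent. Their siERH change ran from -0.36 to 0.22 and the lowest adjusted p was 0.055, with a GC trend removed and the replicate block. With 20595 or more counts a library for each of the 3 members, counting error was small beside the spread between libraries. Over all results 567 of 769 alternatives kept the direction and the side of the threshold. The cause of each change below was not tested, beyond fewer hairpins or libraries where a setting removes them. The replicate block changed no call other than those given in the report, and in siERH against control it moved no count over all hairpins past 1.5 times.

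Log2 fold changes near 0 often changed sign, and no sign change below carried a call with it. With library totals siERH gave 0.20 for hsa-mir-103a-1, 0.20 for hsa-mir-103a-2 and 0.20 for hsa-mir-107, and 0.11 for hsa-mir-218-1, 0.11 for hsa-mir-218-2, 0.19 for hsa-mir-424 and 0.18 for hsa-mir-93. With a minimum of 100 CPM these were 0.11 for hsa-mir-103a-1, 0.11 for hsa-mir-103a-2 and 0.11 for hsa-mir-107, and 0.046 for hsa-mir-218-1, 0.037 for hsa-mir-218-2, 0.093 for hsa-mir-424 and 0.097 for hsa-mir-93. limma on log2(RPM + 1) gave 0.22 for hsa-mir-103a-1, 0.22 for hsa-mir-103a-2 and 0.22 for hsa-mir-107, and 0.12 for hsa-mir-218-1, 0.11 for hsa-mir-218-2, 0.24 for hsa-mir-424 and 0.19 for hsa-mir-93. On log2(RPM + 10) it gave 0.22 for hsa-mir-103a-1, 0.22 for hsa-mir-103a-2 and 0.22 for hsa-mir-107, and 0.12 for hsa-mir-218-1, 0.11 for hsa-mir-218-2, 0.24 for hsa-mir-424 and 0.19 for hsa-mir-93. Against siGFP alone the values were 0.13 for hsa-mir-103a-1, 0.13 for hsa-mir-103a-2 and 0.13 for hsa-mir-107, and 0.029 for hsa-mir-218-1, 0.025 for hsa-mir-218-2, 0.058 for hsa-mir-424 and 0.068 for hsa-mir-93. With 1 row kept per set of copies, which leaves no value for hsa-mir-103a-1, they were 0.020 for hsa-mir-103a-2, 0.020 for hsa-mir-107, 0.010 for hsa-mir-424 and 0.0063 for hsa-mir-93. The other way, removing a GC trend gave -0.17 for hsa-mir-26a-2, -0.31 for hsa-mir-16-1, -0.34 for hsa-mir-16-2 and -0.082 for hsa-mir-30c-1, and with the replicate block -0.20 for hsa-mir-26a-2, -0.34 for hsa-mir-16-1, -0.36 for hsa-mir-16-2 and -0.098 for hsa-mir-30c-1. Against siControl alone the values were -0.14 for hsa-mir-26a-2, -0.10 for hsa-mir-16-1, -0.061 for hsa-mir-16-2 and -0.18 for hsa-mir-30c-1, and in replicate 2 alone -0.19 for hsa-mir-26a-2, -0.13 for hsa-mir-16-1, -0.080 for hsa-mir-16-2 and -0.21 for hsa-mir-30c-1. Without a filter on low counts they were -0.029 for hsa-mir-26a-2, -0.0074 for hsa-mir-16-1 and -0.0036 for hsa-mir-30c-1.

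For siERH-3, hsa-mir-107 gave -0.066 with DESeq2 and -0.094 with no filter. hsa-mir-103a-1 and hsa-mir-103a-2 gave 0.19 and 0.19 on library totals, and 0.028 and 0.028 with the replicate block. For siControl against siGFP the replicate block gave 0.34 for hsa-mir-103a-1, 0.34 for hsa-mir-103a-2 and 0.34 for hsa-mir-107. On library totals the untested log2 ratios of hsa-mir-103a-1, hsa-mir-103a-2 and hsa-mir-107 were -0.014, -0.010, -0.027 for siERH-5 in HEK293E, 0.19, 0.18, 0.19 for siERH-5 in K562, -0.43, -0.43, -0.41 for K562 against HEK293E. The log2 ratio of hsa-mir-107 to hsa-mir-103a-1 alone differed by -0.00084 between siERH and control, and in replicate 2 the differences were -0.0069 for hsa-mir-107 to the mean of the copies and 0.0054 between the copies, which was 0.0013 with the replicate block.

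Counts moved more. For siERH against control, 125 hairpins were lower under TMM, 67 on library totals, 45 (with 38 higher) at 100 CPM, 66 and 63 with limma at pseudocounts of 1 and 10, and 195 with GC and replicate block. For siERH-3, 87 lower became 48 on library totals and 142 with the replicate block. For siControl against siGFP, 0 became 2 lower and 2 higher with DESeq2, the same with no filter, and 61 lower and 72 higher with the replicate block. Of the 47 solitary intronic hairpins, 13 lower became 4 on library totals and with limma at either pseudocount, 6 at 100 CPM, 8 against siGFP alone, 8 against siControl alone and 22 with GC and replicate block, and the list from the annotation gave 38 lower and 110 higher. The 3 higher became 5 with the replicate block and with limma at either pseudocount.

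Leaving out 1 library at a time, siERH gave -0.19 to 0.12 for hsa-mir-103a-1, -0.18 to 0.12 for hsa-mir-103a-2, -0.19 to 0.12 for hsa-mir-107, -0.080 to 0.26 for hsa-mir-16-1, -0.035 to 0.31 for hsa-mir-16-2, -0.12 to 0.30 for hsa-mir-26a-2, -0.11 to 0.36 for hsa-mir-30c-1, -0.24 to 0.20 for hsa-mir-424, -0.17 to 0.081 for hsa-mir-93. Hairpins lower ran from 76 to 130, with 77 and 76 without siERH-3 replicate 1 and replicate 2, and list hairpins lower from 6 to 15. siERH-3 gave -0.18 to 0.16 for hsa-mir-103a-1, -0.17 to 0.15 for hsa-mir-103a-2, -0.17 to 0.15 for hsa-mir-107, with 19 to 102 hairpins lower and 42 to 152 higher. The lowest counts came without 1 of the siERH-3 libraries, which leaves 1 siERH library assumed to vary like the others, and without siControl replicate 1 there were 51 lower. siControl against siGFP gave -0.049 to 0.78 for hsa-mir-103a-1, -0.037 to 0.77 for hsa-mir-103a-2, -0.042 to 0.79 for hsa-mir-107, with 0 to 1 hairpins higher. The difference in ratio was -0.010 to 0.0094 for hsa-mir-107 to the mean of the copies and -0.0069 to 0.0025 between the copies.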
